A study of Homo sapiens with 6 samples.

Results

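The nuclear genes of respiratory complexes II to V and of cytochrome c were examined in SW480, a long-established human cell line from a colorectal adenocarcinoma. Members were all genes whose array symbol begins with SDHA, SDHB, SDHC, SDHD, UQCR, COX followed by 4 to 8, ATP5F, ATP5M, ATP5P or ATP5IF, or is CYC1 or CYCS, with pseudogenes left out. They numbered 50 of the 19775 genes with a probe set annotated to a single symbol, with 3 subunits of complex II, 4 complex II assembly factors (the SDHAF genes, which the first prefix also takes), 7 of complex III, 17 of complex IV, 18 of complex V, the inhibitor ATP5IF1 among them, and cytochrome c itself. SDHB, UQCRFS1 and ATP5MGL were not analysed here, and UQCRH, read only by a probe set it shares with UQCRHL, is not a member.

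The study has 3 samples of SW480 cells whose labels say that they overexpress CPEB3, a protein that binds mRNAs at cytoplasmic polyadenylation elements, and 3 samples labelled as its negative control (NC). The transfected cells were kept in Dulbecco's modified Eagle's medium with fetal calf serum, penicillin and streptomycin. Each sample's total RNA went onto 1 Affymetrix HG-U133 Plus 2.0 array. The labels name the replicates biological but give no clone, vector, culture or day, so the spread behind each p-value is that of these 6 samples and may be technical. Values are log2 of the deposited normalized intensity of the brightest single-symbol probe set of each gene, and differences are CPEB3 minus NC.

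CPEB3 mRNA did not follow its label. At its most variable probe set the level was 2.31 ± 0.21 in arrays labelled CPEB3, against 3.75 ± 0.21 in arrays labelled NC (mean and SD, n = 3 each), and it was lower at 3 of its 4 probe sets (limma over all probe sets, Benjamini-Hochberg adjusted p = 7.80e-05 to 0.0473). At the brightest of the 4 it stood at 5.37 ± 0.03 in arrays labelled CPEB3, against 5.32 ± 0.07 in arrays labelled NC, a difference of 0.05 that turned into a call only with spike-in centring (0.23; limma, Benjamini-Hochberg adjusted p = 0.0432). The 3 lower probe sets of CPEB3 were all dimmer than the median probe set (3.90) in each group. Every direction below rests on the labels as given. The hybridisation spike-ins, which are added in equal amounts, averaged 9.57 in the CPEB3 arrays and 9.75 in the NC arrays, a difference of -0.18. They were normalized together with all other probe sets, so centring on them cannot show a shift in the amount of RNA per cell. The step from the 5′ to the 3′ control probe set, a sign of RNA integrity and of the labelling reaction, was 3.24 to 3.54 for ACTB and 0.01 to 0.14 for GAPDH in CPEB3 arrays, against 3.21 to 3.27 and -0.04 to 0.01 in NC arrays, and its part in the results was not tested. Of the colon epithelial markers, EPCAM (11.13 in CPEB3 arrays, 11.09 in NC arrays) and KRT18 (11.62 and 11.36) were bright in both groups. Others were far dimmer, among them CDX1 (5.14 in CPEB3 arrays, 5.02 in NC arrays), CDX2 (4.85 and 4.83), VIL1 (4.52 and 4.49) and KRT20 (5.13 and 4.26). Of the 10 colon epithelial markers 2 were higher and 0 lower (limma, Benjamini-Hochberg adjusted p under 0.05). Over all 19775 genes, 10.9% were higher and 12.5% lower. Of the leukocyte markers 1 of 8 was higher and 0 lower, with a summed linear intensity of 139.7 to 151.8 in CPEB3 arrays and 125.9 to 135.9 in NC arrays. Of the fibroblast markers 1 of 8 was higher and 0 lower (169.6 to 179.4 in CPEB3 arrays, 151.6 to 167.6 in NC arrays). For endothelium 0 of 6 were higher and 1 lower (88.6 to 90.9 in CPEB3 arrays, 90.4 to 93.9 in NC arrays), and for muscle 1 of 6 was higher and 0 lower (67.9 to 72.3 in CPEB3 arrays, 58.7 to 60.8 in NC arrays). Dimmer than the median probe set (3.90) in each group were 4 of 8 leukocyte markers (PTPRC and CD14 among them), 4 of 8 fibroblast markers (COL1A2 and COL3A1 among them), 3 of 6 endothelial markers (CDH5 among them) and 4 of 6 muscle markers (ACTA1 and CKM among them). The other markers lay above it in at least 1 group, among them COL1A1 (6.48 in CPEB3 arrays, 6.32 in NC arrays), CD79A (5.30 in CPEB3 arrays, 5.15 in NC arrays), CD3E (4.92 in CPEB3 arrays, 4.74 in NC arrays) and PECAM1 (4.86 in CPEB3 arrays, 4.79 in NC arrays). So did the 3 that rose, ITGAM (4.64 in CPEB3 arrays, 4.32 in NC arrays), DCN (4.24 in CPEB3 arrays, 3.95 in NC arrays) and MB (4.31 in CPEB3 arrays, 3.74 in NC arrays). With lists this short, no shift of a cell type is read from the counts. The part of these markers in the results was not tested. In bulk RNA, a different number of cells and a different amount of RNA per cell cannot be told apart.

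Complex II, succinate dehydrogenase, passes electrons from succinate to ubiquinone. Complex III moves them on to cytochrome c while pumping protons, complex IV hands them to oxygen, and complex V, the ATP synthase, uses the proton gradient of the inner mitochondrial membrane to make ATP. Most subunits are encoded in the nucleus and imported, and the catalytic core of complex IV, cytochrome b of complex III and a pair of membrane subunits of complex V are encoded in mitochondrial DNA. Nuclear respiratory factor 1 (NRF1), GABP (also called NRF2) and YY1 are transcription factors known to act at promoters of these nuclear genes.

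The proximal promoters of members carry letters that match those factors, and a few are shown because such letters were more frequent in member promoters than in promoters in general. Promoter windows from 250 bases before to 50 after the RefSeq start (GRCh38.p14) were given for 40 of the 50 members. The letters GCGCANGCG (NRF1), CCGGAAGT (GABP) and AAGATGGCG (YY1) were searched on both strands, where overlapping matches can come from 1 palindromic site. Each line below holds 40 bases upstream of the start, with the matching letters in capitals.
UQCRQ: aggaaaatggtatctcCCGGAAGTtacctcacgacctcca
UQCR11: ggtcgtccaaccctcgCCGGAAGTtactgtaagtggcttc
COX8A: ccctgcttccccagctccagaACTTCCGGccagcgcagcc
COX6A1: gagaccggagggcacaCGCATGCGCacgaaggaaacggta
ATP5F1C: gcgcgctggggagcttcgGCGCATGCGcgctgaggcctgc
ATP5PF: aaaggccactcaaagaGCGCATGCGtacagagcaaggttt
SDHD: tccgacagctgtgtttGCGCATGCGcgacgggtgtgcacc
ATP5MC2: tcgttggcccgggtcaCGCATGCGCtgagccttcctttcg

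The UQCRQ stretch lies at chr5:132866572-132866611 (plus strand), that of UQCR11 at chr19:1605556-1605595 (minus strand) and that of COX8A at chr11:63974580-63974619 (plus strand), all with GABP letters. NRF1 letters are shown for COX6A1 at chr12:120437878-120437917 (plus strand), ATP5F1C at chr10:7788137-7788176 (plus strand), ATP5PF at chr21:25735151-25735190 (minus strand), SDHD at chr11:112086747-112086786 (plus strand) and ATP5MC2 at chr12:53676101-53676140 (minus strand). NRF1 letters occurred in 15 of the 40 member promoters (37.5%) and in 11% of 15843 protein-coding promoters of the same length. GABP letters occurred in 8 (20%, against 6.19% of all) and YY1 letters in 2 (5%, against 2.74%). At least 1 of the 3 was found in 12 of the 23 members that were higher in the CPEB3 arrays (52.2%) and in 9 of the other 17 (52.9%). SDHD and ATP5MC2, which did not pass the test in the expression data, are printed beside 6 members that rose. NRF1 letters were in 30.4% of the members that rose and 47.1% of the others, and GABP letters in 26.1% of those that rose and 11.8% of the others. A match is a description of these letters and not a measured binding site.

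Members were mostly higher in the arrays labelled CPEB3. Of the 50, 28 (56%) rose at a limma Benjamini-Hochberg adjusted p under 0.05, where 10.9% of all 19775 genes did so, 1 fell, where 12.5% of all genes did so, and 21 did not pass. The largest change was 1.43-fold, and the median difference of the members was 0.20, beside 0.02 over all genes. The difference was above 0 in 46 of 50 members, and in 36 all 3 CPEB3 arrays lay above all 3 NC arrays, as they did in 19.9% of all genes. Bright genes passed more often in general. Among the 1197 genes with a mean log2 of 9 or more, 21.4% were higher, against 26 of the 36 members (72.2%) at that brightness. Without NC replicate 3, 18 members were higher. With cross-matching probe sets (those that may read more than 1 transcript) left out, 17 of the 43 members that kept a probe set were higher. Some of the 43 were then read by a far dimmer probe set. Centring on the spike-ins moved the median of all genes to 0.20 and gave 7766 genes higher (39.3%) and 1038 lower, in place of 2146 and 2470. Under it 43 members were higher and 0 lower, with a median of 0.38.

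**Figure D1:**
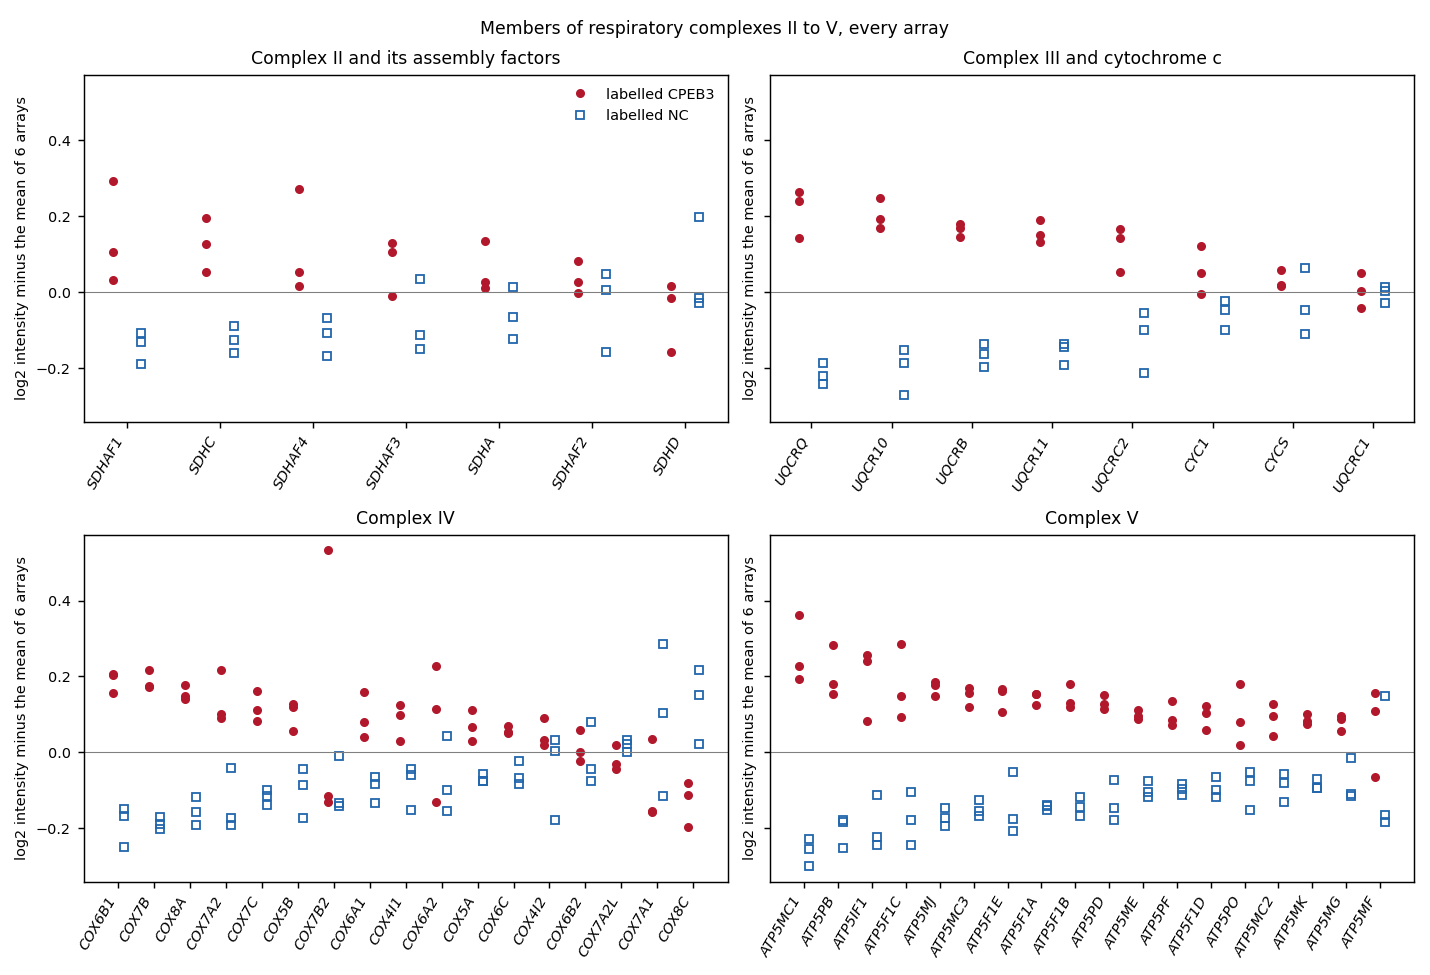
Log2 intensity of every member on every array, minus the mean of its 6 arrays, by complex; filled circles are the 3 arrays labelled CPEB3 and open squares the 3 labelled NC. In 36 of the 50 members all circles lie above all squares, and in COX8C all lie below.

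Complex V, the ATP synthase, rose in 14 of 18 members (77.8%), with a median difference of 0.28 and 0 lower. All 18 differences were above 0, and the groups were separate in 17. All 5 subunits of the F1 head, which makes ATP, rose. The gamma subunit ATP5F1C, the rotating shaft, read 10.99, 10.85 and 10.80 in the arrays labelled CPEB3, against 10.46, 10.60 and 10.53 in the arrays labelled NC. The lowest CPEB3 value stood above the highest NC value, a difference of 0.35 (SE 0.07; limma, Benjamini-Hochberg adjusted p = 0.00668), 1.28-fold. The catalytic beta subunit ATP5F1B rose by 0.29, the alpha subunit ATP5F1A by 0.29, ATP5F1E (epsilon) by 0.29 and ATP5F1D (delta) by 0.19, with limma Benjamini-Hochberg adjusted p from 0.00451 to 0.0364. ATP5F1D lost its call without any 1 of the 6 arrays (limma, Benjamini-Hochberg adjusted p = 0.0675 to 0.0988), while its difference stayed at 0.18 to 0.21. With cross-matching probe sets left out, ATP5F1A and ATP5F1C were read by far dimmer probe sets (2.87 and 4.95 in CPEB3 arrays, 2.82 and 4.92 in NC arrays). There they differed by 0.05 and 0.03 (limma, Benjamini-Hochberg adjusted p = 0.669 and 0.817). ATP5F1E, whose other probe set is dim, differed by 0.12 with its probe sets averaged (limma, Benjamini-Hochberg adjusted p = 0.272).

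The peripheral stalk, which holds the head still, rose in 3 of 4 members. Its b subunit ATP5PB had log2 values of 11.57, 11.44 and 11.46 in CPEB3 arrays, against 11.03, 11.11 and 11.10 in NC arrays. The groups were separate by a wide margin, a difference of 0.41 (SE 0.06; limma, Benjamini-Hochberg adjusted p = 0.00142), 1.33-fold. ATP5PD (d) rose by 0.26 and ATP5PF (coupling factor 6) by 0.20, whereas ATP5PO, the oligomycin-sensitivity subunit, differed by 0.19 (95% interval 0.04 to 0.33; limma, Benjamini-Hochberg adjusted p = 0.0679). ATP5PF lost its call without 5 of the 6 single arrays (limma, Benjamini-Hochberg adjusted p = 0.0705 to 0.0896) and with median centring (0.0526). Without cross-matching probe sets, ATP5PB and ATP5PD were read by far dimmer probe sets (3.76 and 5.01 in CPEB3 arrays, 3.76 and 4.97 in NC arrays). The differences there were 0.0014 for ATP5PB and 0.04 for ATP5PD (limma, Benjamini-Hochberg adjusted p = 0.994 and 0.785). With its probe sets averaged, ATP5PD differed by 0.15 (limma, Benjamini-Hochberg adjusted p = 0.0635).

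The membrane part rose in 5 of 8 members. The c ring, whose rotation drives the shaft, is made from 3 nuclear genes that encode the same mature c subunit behind different import sequences, and their differences ran in the order ATP5MC1, ATP5MC3, ATP5MC2. ATP5MC1 read 9.85, 9.88 and 10.02 in CPEB3 arrays, against 9.36, 9.43 and 9.40 in NC arrays, a difference of 0.52 (SE 0.06; limma, Benjamini-Hochberg adjusted p = 5.10e-04), 1.43-fold. It was the largest difference of the 50 members, and every CPEB3 array exceeded every NC array. ATP5MC3 read 11.02, 10.97 and 11.01 in CPEB3 arrays, against 10.68, 10.73 and 10.70 in NC arrays, a difference of 0.30 (SE 0.05; limma, Benjamini-Hochberg adjusted p = 0.00405). For ATP5MC2 the values were 9.47, 9.52 and 9.55 in CPEB3 arrays, against 9.29, 9.34 and 9.37 in NC arrays, a difference of 0.18 (SE 0.06; limma, Benjamini-Hochberg adjusted p = 0.0526), so its groups were also separate although the test was missed. Whether ATP5MC1 and ATP5MC2 differ in their response was not tested (95% intervals 0.37 to 0.67 and 0.05 to 0.31). Among the small membrane proteins, ATP5MJ rose by 0.34, ATP5ME by 0.20 and ATP5MK by 0.17. ATP5ME and ATP5MK lost their calls without any 1 of the 6 arrays (limma, Benjamini-Hochberg adjusted p = 0.0512 to 0.0852 for ATP5ME and 0.0572 to 0.120 for ATP5MK), and ATP5MK also with median centring (0.0782) and with cross-matching probe sets left out (0.067). ATP5MG (0.16) and ATP5MF (0.13, at a dim probe set) did not pass.

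ATP5IF1, which blocks the synthase from running backwards and burning ATP when the membrane potential drops, rose with the subunits. Its values were 9.09, 9.25 and 9.26 in CPEB3 arrays, against 8.90, 8.79 and 8.76 in NC arrays, a difference of 0.39 (SE 0.07; limma, Benjamini-Hochberg adjusted p = 0.00393), 1.31-fold. Its other 2 probe sets rose as well, by 0.40 and 0.52.

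Complex III rose in 5 of 7 members (71.4%), with a median of 0.32 and 0 lower. UQCRQ, a small supernumerary subunit, read 10.91, 10.79 and 10.89 in the arrays labelled CPEB3, against 10.43, 10.46 and 10.40 in the arrays labelled NC. The NC arrays were tightly grouped far below the CPEB3 arrays, a difference of 0.43 (SE 0.06; limma, Benjamini-Hochberg adjusted p = 9.09e-04), 1.35-fold. UQCR10, another small subunit, read 9.95, 9.93 and 10.01 in CPEB3 arrays, against 9.49, 9.57 and 9.61 in NC arrays, a difference of 0.41 (SE 0.06; limma, Benjamini-Hochberg adjusted p = 0.00135). UQCRB, which contacts ubiquinone near cytochrome b, read 11.34, 11.30 and 11.33 in CPEB3 arrays, against 11.02, 10.99 and 10.96 in NC arrays, a difference of 0.33 (SE 0.05; limma, Benjamini-Hochberg adjusted p = 0.0024). The groups of both were separate. UQCR11 followed at 10.53, 10.47 and 10.49 in CPEB3 arrays, against 10.19, 10.15 and 10.20 in NC arrays, a difference of 0.32 (SE 0.06; limma, Benjamini-Hochberg adjusted p = 0.00344). Once cross-matching probe sets were left out, UQCR11 was read by a dimmer probe set whose groups overlapped and differed by 0.12 (limma, Benjamini-Hochberg adjusted p = 0.263). Of the 2 core proteins that scaffold the complex on the matrix side, UQCRC2 rose by 0.24 (limma, Benjamini-Hochberg adjusted p = 0.0263, lost without any of 4 single arrays), and UQCRC1 differed by 0.01 (95% interval -0.12 to 0.13). CYC1, the cytochrome c1 subunit that carries a redox haem, read 9.76, 9.69 and 9.63 in CPEB3 arrays, against 9.54, 9.59 and 9.62 in NC arrays. Its groups were separate by little, a difference of 0.11 (SE 0.06; limma, Benjamini-Hochberg adjusted p = 0.225). The members of this complex that rose were 4 small accessory subunits and 1 core protein.

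Cytochrome c, the soluble carrier between complexes III and IV and a trigger of apoptosis when released, depended on the probe set. At the brightest, CYCS had 11.66, 11.70 and 11.66 in CPEB3 arrays, against 11.71, 11.60 and 11.53 in NC arrays, a difference of 0.06 (SE 0.06; limma, Benjamini-Hochberg adjusted p = 0.536), and the groups overlapped. Both dimmer probe sets were higher. The first read 6.08, 5.85 and 5.85 in CPEB3 arrays, against 4.92, 4.92 and 4.96 in NC arrays (difference 0.99; limma over all probe sets, Benjamini-Hochberg adjusted p = 4.08e-05). The second read 5.13, 5.16 and 5.24 in CPEB3 arrays, against 4.57, 4.79 and 4.46 in NC arrays (difference 0.57; limma over all probe sets, Benjamini-Hochberg adjusted p = 0.00268). At both, all CPEB3 arrays lay above all NC arrays. Where these probe sets lie in the transcript was not analysed here, so no single value is given for CYCS mRNA.

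Complex IV rose in 7 of 17 members (41.2%), with 1 lower and a median of 0.17. COX6B1, a subunit on the intermembrane side, read 10.18, 10.13 and 10.18 in the arrays labelled CPEB3, against 9.73, 9.81 and 9.83 in the arrays labelled NC. The groups were clearly separate, a difference of 0.38 (SE 0.06; limma, Benjamini-Hochberg adjusted p = 0.00166), 1.3-fold. COX7B was next at 11.12, 11.08 and 11.08 in CPEB3 arrays, against 10.70, 10.72 and 10.73 in NC arrays, a difference of 0.37 (SE 0.05; limma, Benjamini-Hochberg adjusted p = 0.00118). COX8A, a small membrane-spanning subunit, read 9.97, 9.96 and 10.00 in CPEB3 arrays, against 9.67, 9.63 and 9.70 in NC arrays, a difference of 0.31 (SE 0.06; limma, Benjamini-Hochberg adjusted p = 0.00368). COX7A2 read 11.41, 11.40 and 11.52 in CPEB3 arrays, against 11.26, 11.13 and 11.11 in NC arrays, a difference of 0.27 (SE 0.07; limma, Benjamini-Hochberg adjusted p = 0.0178). COX7A2 lost its call without CPEB3 replicate 3, NC replicate 2 or NC replicate 3 (limma, Benjamini-Hochberg adjusted p = 0.0643, 0.0602 and 0.059). COX7C rose by 0.24 (0.0506 without CPEB3 replicate 1), COX5B by 0.20 and COX6A1 by 0.19, and COX5B and COX6A1 lost their calls without any 1 of the 6 arrays. With cross-matching probe sets left out, COX5B was read by a dimmer probe set (7.15 in CPEB3 arrays, 7.13 in NC arrays) and differed by 0.02. COX5A, whose product pairs with COX4I1 early in assembly, differed by 0.14 (95% interval 0.01 to 0.26), COX6C by 0.12 (95% interval -0.01 to 0.24), and both had separate groups without passing the test. At its other probe set COX5A was higher by 0.34 (limma over all probe sets, Benjamini-Hochberg adjusted p = 0.0365), and with its probe sets averaged it rose by 0.24 (limma, Benjamini-Hochberg adjusted p = 0.0238).

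Several complex IV subunits come as a widely expressed form and a tissue form, and 0 of the 7 members that rose were tissue forms. The 6 tissue forms had a median difference of 0.06, with 0 higher and 1 lower, and 3 of them lay below the median of all probe sets (3.90) in both groups. COX4I2, COX6A2 and COX6B2 stood near it, with group means of 3.83 to 4.55. The other 44 members had 28 higher, 0 lower and a median of 0.23. The part of the low signal of the tissue forms in this contrast was not tested. For the COX4 pair, COX4I1 read 11.68, 11.75 and 11.77 in CPEB3 arrays, against 11.50, 11.61 and 11.59 in NC arrays, a difference of 0.17 (SE 0.06; limma, Benjamini-Hochberg adjusted p = 0.0744). All CPEB3 arrays lay above all NC arrays, and the test was missed. COX4I2, the lung form that is induced by low oxygen, read 4.53, 4.59 and 4.52 in CPEB3 arrays, against 4.32, 4.53 and 4.50 in NC arrays and overlapped, a difference of 0.10 (SE 0.07; limma, Benjamini-Hochberg adjusted p = 0.378). For the COX6A pair, COX6A1 read 11.50, 11.62 and 11.54 in CPEB3 arrays, against 11.33, 11.38 and 11.40 in NC arrays, a difference of 0.19 (SE 0.06; limma, Benjamini-Hochberg adjusted p = 0.0492), and its heart and muscle form COX6A2 read 4.13, 4.01 and 3.77 in CPEB3 arrays, against 3.80, 3.94 and 3.75 in NC arrays and overlapped. COX6B2, the testis form of COX6B1, read 4.06, 3.97 and 4.0 in CPEB3 arrays, against 3.95, 3.92 and 4.08 in NC arrays and overlapped, with a difference of 0.03 (95% interval -0.12 to 0.17). COX7A1, the heart and muscle form of COX7A2, read 3.19, 3.19 and 3.38 in CPEB3 arrays, against 3.23, 3.45 and 3.63 in NC arrays, and COX7B2, the testis form of COX7B, read 2.04, 2.70 and 2.05 in CPEB3 arrays, against 2.16, 2.04 and 2.03 in NC arrays. Both overlapped, and a single CPEB3 array stood high for COX7B2. COX8C, the testis form of COX8A, was the 1 member that fell, at 1.4, 1.49 and 1.51 in CPEB3 arrays, against 1.81, 1.75 and 1.62 in NC arrays, a difference of -0.26 (SE 0.07; limma, Benjamini-Hochberg adjusted p = 0.0242). Its probe set was dim in all arrays, and the call was lost without any of 4 single arrays and with spike-in centring. COX7A2L, which links complexes III and IV into supercomplexes, read 9.20, 9.14 and 9.15 in CPEB3 arrays, against 9.21, 9.18 and 9.20 in NC arrays and overlapped, a difference of -0.04 (SE 0.05; limma, Benjamini-Hochberg adjusted p = 0.694).

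**Figure D2:**
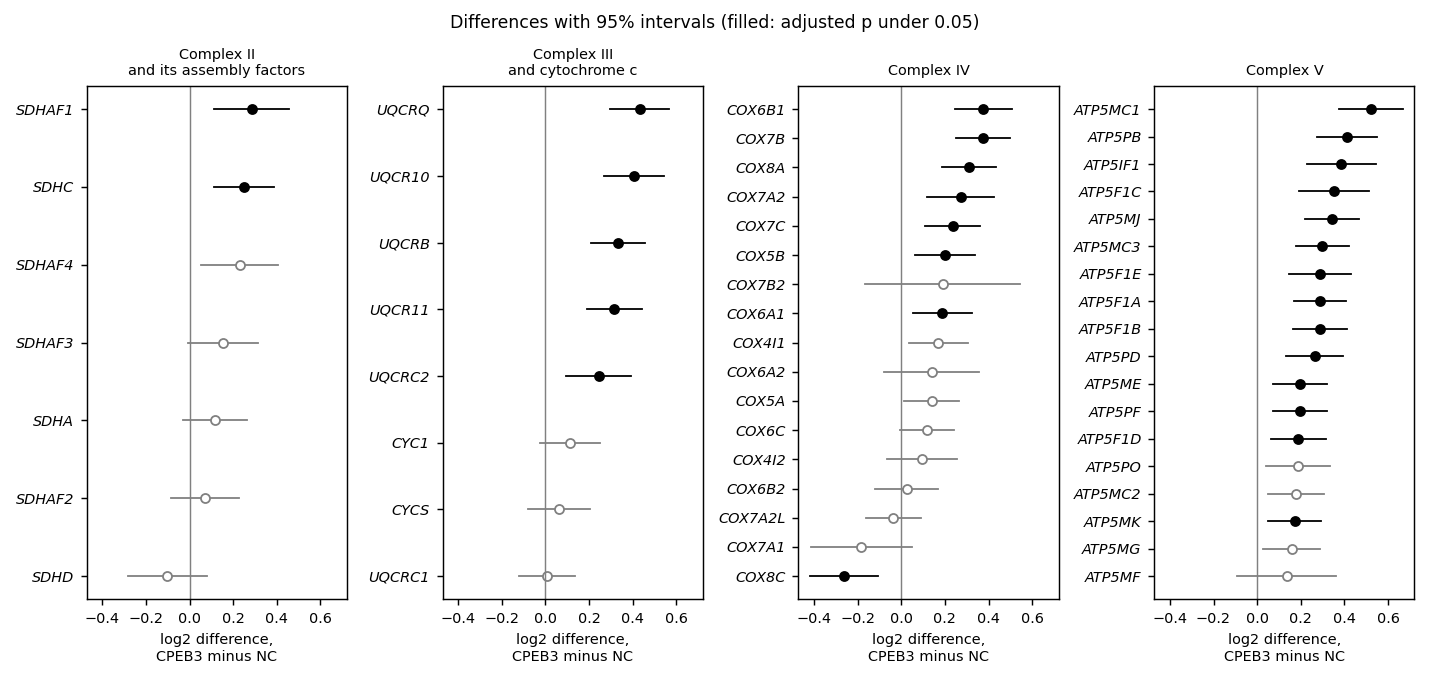
Log2 difference (CPEB3 minus NC, x axis) of each member with its 95% interval from limma, by complex; filled points passed an adjusted p of 0.05. All 18 members of complex V lie to the right of 0, and COX8C is the only filled point to the left.

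Complex II, which unlike the others also works in the citric acid cycle and has no subunit encoded in mitochondrial DNA, had 2 of 7 members higher (28.6%) and 0 lower with its assembly factors counted. Among the subunits, SDHC, a membrane anchor, read 8.22, 8.29 and 8.15 in the arrays labelled CPEB3, against 7.97, 8.0 and 7.93 in the arrays labelled NC. Its groups were separate, a difference of 0.25 (SE 0.06; limma, Benjamini-Hochberg adjusted p = 0.0168), 1.19-fold. The flavoprotein SDHA differed by 0.12 (95% interval -0.03 to 0.26) and the other membrane anchor, SDHD, by -0.10 (95% interval -0.28 to 0.08). Among the assembly factors, SDHAF1, which helps insert iron-sulphur clusters, read 7.56, 7.75 and 7.49 in CPEB3 arrays, against 7.35, 7.27 and 7.32 in NC arrays, a difference of 0.29 (SE 0.08; limma, Benjamini-Hochberg adjusted p = 0.0243). Again all CPEB3 arrays were above all NC arrays. SDHAF4 (limma, Benjamini-Hochberg adjusted p = 0.0624), SDHAF3 and SDHAF2, which adds the flavin to SDHA, differed by 0.23, 0.15 and 0.07. Neither SDHC (without CPEB3 replicate 2, or NC replicate 3) nor SDHAF1 (without CPEB3 replicate 1 or 2, or NC replicate 2 or 3) kept its call in every fit without 1 array, and the count ranged from 0 to 2. Whether the complexes differ from each other in their response was not tested, since genes of 1 complex are not replicates.

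The other probe sets of the members mostly went the same way. Of 98 single-symbol probe sets, 48 did not stand for their gene, and when every probe set was tested on its own 20 of these were higher and 0 lower (limma, Benjamini-Hochberg adjusted p under 0.05), where 6.59% of all 54613 probe sets were higher and 7.86% lower. Of the 20 members that rose and have several probe sets, 10 had another one that rose. In 21 of 27 members with several probe sets, all differences had 1 sign. Signs were mixed for ATP5F1E, ATP5MC2, COX4I1, SDHD, UQCRB (-0.07 at its dimmest probe set) and UQCRC2 (-0.03 at its dimmest). Of the 40 other probe sets at or above the median brightness, 23 had a larger difference than the brightest one of their gene. ATP5MG, not past the test at its brightest probe set, read 8.38, 8.46 and 8.42 in CPEB3 arrays, against 8.0, 7.90 and 7.76 in NC arrays (difference 0.53; limma over all probe sets, Benjamini-Hochberg adjusted p = 0.00162) at its dimmest. The second probe set of ATP5MJ read 9.40, 9.38 and 9.41 in CPEB3 arrays, against 8.78, 8.81 and 8.85 in NC arrays (difference 0.58; limma over all probe sets, Benjamini-Hochberg adjusted p = 2.83e-04). For UQCRB the third read 7.79, 7.82 and 7.92 in CPEB3 arrays, against 7.31, 7.31 and 7.33 in NC arrays (difference 0.53; limma over all probe sets, Benjamini-Hochberg adjusted p = 6.83e-04). In each of these the groups were separate. Many members have processed pseudogenes, and whether the cross-matching probe sets read any of those was not tested. ATP5F1A, ATP5F1C, ATP5F1E and ATP5PB had a bright probe set that rose and a dimmer one at 0.05, 0.03, -0.041 and 0.0014, in that order. ATP5F1C also rose at its other bright probe sets, both cross-matching, by 0.41 and 0.39 (limma over all probe sets, Benjamini-Hochberg adjusted p = 0.0051 and 0.00549).

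**Figure D3:**
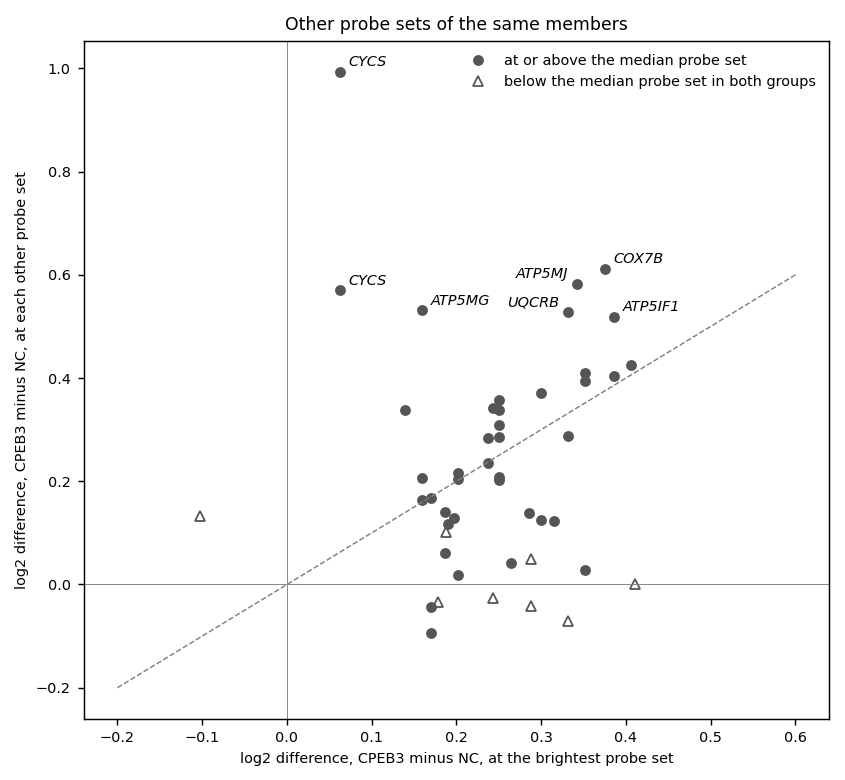
Log2 difference (CPEB3 minus NC) at each other probe set of a member (y axis) against that at its brightest probe set (x axis); the dashed line marks equal values and triangles are probe sets below the median brightness in both groups. Both further CYCS probe sets lie far above the line, at 0.99 and 0.57 against 0.06.

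Of the subunits encoded in mitochondrial DNA, 4 were measured and 0 passed the test: COX1, COX2 and COX3 of complex IV and ATP6 of complex V. COX1 read 12.82, 12.76 and 12.72 in CPEB3 arrays, against 12.83, 12.67 and 12.70 in NC arrays (difference 0.04, 95% interval -0.11 to 0.18) and COX2 12.78, 12.78 and 12.80 in CPEB3 arrays, against 12.79, 12.75 and 12.76 in NC arrays (difference 0.02, 95% interval -0.10 to 0.14). COX3 read 8.28, 8.71 and 8.04 in CPEB3 arrays, against 8.47, 7.83 and 7.76 in NC arrays (difference 0.32, 95% interval -0.14 to 0.79). ATP6 read 12.77, 12.66 and 12.51 in CPEB3 arrays, against 12.52, 12.28 and 12.35 in NC arrays (difference 0.26, 95% interval 0.07 to 0.46). The groups overlapped in all 4, and limma Benjamini-Hochberg adjusted p was 0.739 for COX1, 0.834 for COX2, 0.308 for COX3 and 0.0596 for ATP6. With spike-in centring 2 of the 4 were higher, as were 39.3% of all genes.

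Assembly factors of complexes III to V, which are not members, rose in 18 of 39 (46.2%, against 10.9% of all genes). None fell (12.5% of all genes did), and the median was 0.19. The largest rises were those of COX14, needed for COX1 synthesis, at 8.39, 8.37 and 8.44 in CPEB3 arrays, against 7.56, 7.76 and 7.79 in NC arrays (difference 0.70, SE 0.07; limma, Benjamini-Hochberg adjusted p = 1.98e-04), LYRM7, a chaperone of the Rieske protein (0.63), and COA3, the partner of COX14 (0.63). Their groups were separate. Genes that shape the inner membrane rose in 5 of 13 (38.5%, against 10.9% of all genes) and fell in 0, with a median of 0.02 like that of all genes. The rises were led by MICOS10 (0.54), APOO (0.52) and APOOL (0.40), all parts of the complex that forms cristae junctions. Of the same complex, MICOS13 rose by 0.33, while IMMT (-0.04), CHCHD3 (-0.16, with separate groups) and CHCHD6 (0.16) did not pass. A list of 9 genes held carriers and channels for phosphate, nucleotides and protons, and the creatine kinase CKMT2. Of these 2 rose (22.2%), UCP2 (0.57) and VDAC3 (0.25), and 0 fell, with a median of 0.06. The share over all genes was 10.9%, and 21.4% for genes with a mean log2 of 9 or more, which not all 9 reach. With 9 genes, no shift of the list is read from the count. The ADP/ATP carrier SLC25A4 differed by -0.22 with overlapping groups, and its relative SLC25A5 (0.10) and the phosphate carrier SLC25A3 (0.11) did not pass.

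Regulators of mitochondrial gene expression did not share one direction, with 3 of 17 higher (17.6%, against 10.9% of all genes), 4 lower (23.5%, against 12.5% of all genes) and a median of -0.10. With counts this small, no shift of the regulators as a group is read from them. GABPB1, a subunit of the factor GABP, fell to 6.47 ± 0.06 in CPEB3 arrays, against 6.96 ± 0.10 in NC arrays (SD, n = 3 each), a difference of -0.49 (SE 0.07; limma, Benjamini-Hochberg adjusted p = 0.00114). GABPB2, a related subunit, fell by 0.41, YY1 by 0.27 and TFAM, which packages and transcribes mitochondrial DNA, by 0.26. TFAM read 8.38, 8.27 and 8.42 in CPEB3 arrays, against 8.60, 8.59 and 8.65 in NC arrays, with separate groups, and its call was lost without CPEB3 replicate 2, without NC replicate 3 and with spike-in centring. With cross-matching probe sets left out, TFAM differed by -0.01. TEFM, an elongation factor of mitochondrial transcription, rose by 0.28, the oestrogen-related receptor ESRRA by 0.27 and TFB2M, an initiation factor, by 0.23. ESRRA read 7.01, 6.92 and 7.03 in CPEB3 arrays, against 6.72, 6.66 and 6.77 in NC arrays, a difference of 0.27 (SE 0.06; limma, Benjamini-Hochberg adjusted p = 0.0131), and lost its call without NC replicate 2. NRF1 (-0.05, 95% interval -0.20 to 0.10), GABPA, the DNA-binding subunit of GABP (-0.23, 95% interval -0.48 to 0.02) and PPARGC1A, the coactivator PGC-1 alpha (0.01, 95% interval -0.19 to 0.21), did not pass, and PPARGC1A was dimmer than the median probe set in each group. With spike-in centring 6 of the 17 were higher and 2 lower, and the median turned to 0.08. Under that centring 39.3% of all genes were higher, with a median of 0.20.

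Set beside other multi-subunit machines, where 10.9% of all genes rose and 12.5% fell, complex I had 22 of 32 subunits that rose (68.8%). None of its subunits fell, and the median was 0.26. Mitochondrial ribosomal proteins rose in 23 of 75 (30.7%) and fell in 2, with a median of 0.12. Cytosolic ribosomal proteins rose in 1 of 60 (1.67%) and fell in 0, with a median of 0.02. With spike-in centring 32 of 32 complex I subunits, 54 of 75 mitochondrial and 21 of 60 cytosolic ribosomal proteins were higher. Under that centring 39.3% of all genes were higher, so the cytosolic ribosomal count is near the general share. The summed linear intensity of the 50 members was 68299 to 69381 in the CPEB3 arrays and 58181 to 58514 in the NC arrays, and the ranges did not overlap. For the cytosolic ribosome it was 240695 to 244228 in the CPEB3 arrays and 238926 to 241375 in the NC arrays, which overlapped.

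**Figure D4:**
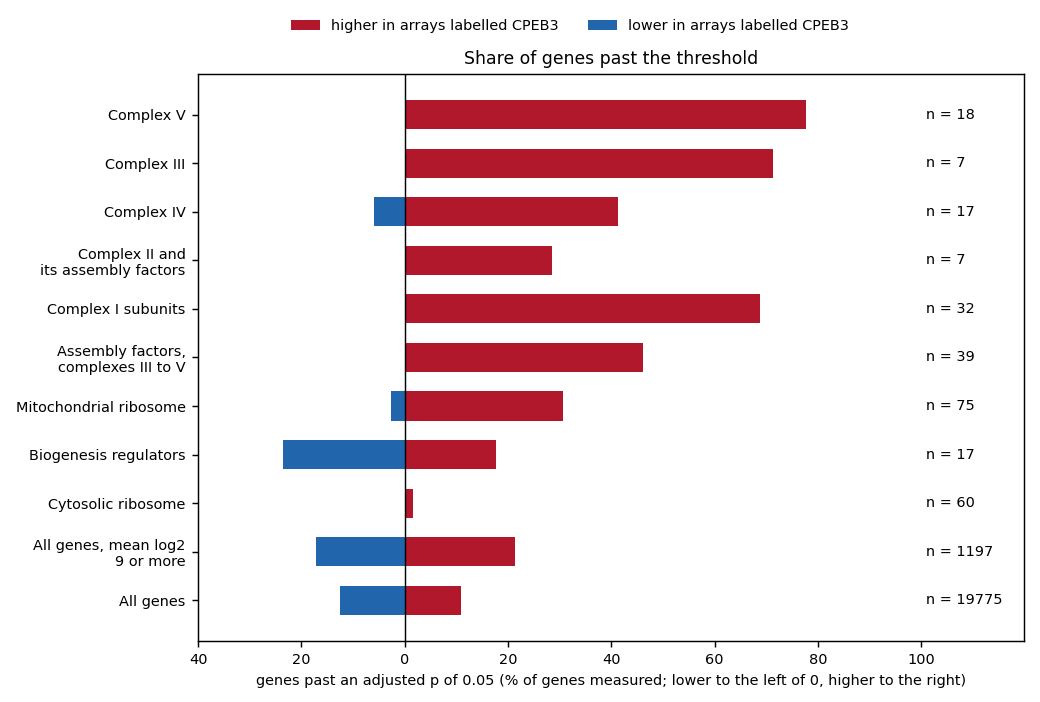
Share of measured genes past an adjusted p of 0.05 (x axis, %) in each complex and list; bars to the right of 0 are higher and bars to the left lower in the arrays labelled CPEB3, with the number of genes measured at the right. Complex V reaches 77.8% higher, against 10.9% of all genes and 21.4% of genes with a mean log2 of 9 or more.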

How the data were processed

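The authors hybridised total RNA of 6 samples to 6 arrays and deposited a normalized intensity, linear, for every probe set. RMA made these values, per the submitters' processing notes, and its version is not given here. Since RMA forces the arrays onto a shared distribution, a shift of the whole transcriptome cannot be seen, and fold changes of faint probe sets come out too small. The log2 of the deposited intensity was analysed.

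Of 54675 probe sets, 62 are controls, 41091 had 1 gene symbol in the platform annotation, 1801 several and 11721 none here. Each of 19775 genes was represented by its single-symbol probe set with the highest mean. Groups and replicate numbers come from the sample titles. The 6 arrays limit the precision.

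Differences were tested with limma 3.58.1 under R 4.3.3 (a two-sided moderated fit with lmFit and eBayes, group as the only term, 4 residual and 5.06 prior degrees of freedom), and p-values were adjusted by Benjamini-Hochberg across the 19775 genes, with calls made under 0.05. Alternatives covered the probe set choice, dim genes, scaling between arrays, the variance model, array weights, the replicate block, a stricter threshold and each array left out. Lists are described by counts and medians only. The fit was tested on simulated data. The members, lists and alternatives were chosen with earlier results of these data known. All members are accounted for, and values in every array are given for up to 4 rises and 4 falls per complex, paired isoforms, the ATP5MC genes, ATP5IF1, CYC1 and CYCS. Up to 3 genes are named per further list, with PPARGC1A, NRF1, GABPA, ESRRA and TFAM in any case. The further probe sets, the single cell type markers and COX6C, IMMT, CHCHD3, CHCHD6, MICOS13, SLC25A3, SLC25A4 and SLC25A5 were chosen after their values were seen. Promoters, gene names and biotypes are from RefSeq (GRCh38.p14). Figures were drawn with matplotlib 3.10.9.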

Additional observations from a re-analysis of the deposited data

Results flagged for a closer look

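Probe sets annotated to several symbols were outside the comparison, and 2 of them that can read members were higher in the arrays labelled CPEB3. The probe set shared by UQCRH, the acidic hinge protein of complex III, and its copy UQCRHL read 11.20 to 11.22 in CPEB3 arrays, against 10.99 to 11.02 in NC arrays, a difference of 0.21 (limma over all probe sets, Benjamini-Hochberg adjusted p = 0.0493). The probe set shared by ATP5MF and ARMC2-AS1 read 10.47, 10.46 and 10.54 in CPEB3 arrays, against 10.10, 10.16 and 10.23 in NC arrays, a difference of 0.32 (limma over all probe sets, Benjamini-Hochberg adjusted p = 0.0111), where the single-symbol ATP5MF probe set gave 0.13 and overlapped. Which of the annotated genes these signals come from was not tested.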

How the results depend on the processing

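The median difference of the members was above 0 under the 18 other settings tried (0.17 to 0.38), and 11 members (ATP5MC1, ATP5MC3, ATP5MJ, ATP5IF1, ATP5F1B, UQCRQ, UQCR10, UQCRB, COX6B1, COX7B and COX8A) rose under every one that included them. Another 11 that rose lost the call without at least 1 array. Leaving out single arrays gave 18 to 23 members higher and 0 to 1 lower, with 0 to 2 higher in complex II, 4 to 5 in complex III with cytochrome c, 4 to 5 in complex IV and 10 to 11 in complex V. Spike-in centring gave 43 members higher and 0 lower (6 in complex II, 12 in complex IV), where 39.3% of all genes were higher. A threshold of 0.01 gave 17 higher and 0 lower (0 in complex II, 3 in complex IV). With cross-matching probe sets left out, 17 members were higher (6 in complex V), with fewer members measured and some read by a far dimmer probe set. The probe set with the largest variance gave 1 higher in complex II. Without dim genes 0 members were lower, since COX8C was then not tested. At its most variable probe set, a dim one, ATP5F1E turned to -0.041 and was not past the threshold. CPEB3 mRNA gave -0.50 when its probe sets were averaged and -1.44 at its most variable one, which is also dim. The cause of the other moves was not tested.

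With the replicate block 22 members were higher and 1 lower. Deviations of arrays with the same number correlated at 0.00, -0.02 and 0.12, and 1 of 3 arrays of each group correlated best with its own number. With 3 arrays per group, these values cannot tell whether arrays of the same number shared a culture or a day. Each probe set fitted on its own, an alternative chosen after seeing the data, gave 22 higher. Detection calls were not used, so signal over background was not tested for the dim probe sets.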
